A study of Mus musculus with 40 samples.

Results

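The ES stage was the undifferentiated start of a reporter screen for enhancers in mouse HM-1 embryonic stem (ES) cells, a 129/ola line whose HPRT locus does not function. DNA fragments cut by the Tn5 transposase from the open chromatin of 5 stages of blood cell differentiation, from ES cells to hematopoietic progenitors, had been mixed, and each was placed at the HPRT locus in front of the HSP68 minimal promoter and the gene of the yellow fluorescent protein Venus-YFP. All ES samples carried this reporter, and they differed only in the gate into which the cells were sorted, which was Negative, Low, Medium or High YFP. The Negative gate had been set with cells that carried the minimal promoter without an enhancer. A deposited sample was the list of unique inserts recovered from the genomic DNA of 1 gate of 1 replicate, with no read counts. With 2 replicates the ES stage had 8 of the 40 libraries. Fragments of the Low, Medium and High gates of a replicate were pooled without repeats as its positive union, and those of its Negative gate are called negative. The inserts had been mixed from all 5 stages before they were placed in the cells, and the lists hold coordinates without expression. The ES label could therefore not be checked against cell type markers.

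The 8 lists held 52068 lines and 48193 different fragments, out of 354627 different fragments in the series. In replicate 1 the Negative, Low, Medium and High gates held 10352, 9461, 8436 and 10437 fragments. In replicate 2 they held 2814, 1763, 4318 and 4487. The positive union numbered 27717 fragments in replicate 1 and 9020 in replicate 2, which was 72.8% and 76.2% of the positive and negative fragments together. A number of fragments is the only measure of depth in these lists, and replicate 2 was the shallower.

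An enhancer is a stretch of DNA that binds transcription factors and raises transcription from a promoter at a distance. Naive ES cells keep their state through a network around OCT4, SOX2 and NANOG, with KLF4, ESRRB and the LIF to STAT3 pathway as further inputs. In a reporter at a fixed locus, an insert that recruits such factors can raise the YFP level above that of the minimal promoter. An insert is usually a part of an open site, so a negative insert does not show that its whole site is inactive.

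Sequences of 10 regions are given first, since the results below turn on how their fragments were spread over the gates. A region is a run of overlapping fragments of any of the 40 libraries. Each line shows the 180 bases of the region that the ES fragments covered most deeply, from the plus strand of mm10 (RefSeq assembly GRCm38.p6). Capitals mark matches to 13 short motifs that were searched on both strands. In the Mirlet7a-1 window this was the TEAD motif (GGAATG), which 11.5% of 54370 windows of the same length held, cut at the centre of every region that was long enough. In the A430078I02Rik window it was the MYC motif (CACGTG), held by 2.93% of such windows. In the Stx3 window it was the GATA motif (AGATAAG, on the minus strand), held by 3.67%. The first 4 regions were recovered in all 6 positive ES libraries.

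Zfp958 region, chr8:4677760-4677939: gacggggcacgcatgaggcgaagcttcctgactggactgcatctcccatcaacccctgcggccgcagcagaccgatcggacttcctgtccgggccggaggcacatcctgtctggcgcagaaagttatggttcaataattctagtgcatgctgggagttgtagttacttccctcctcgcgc
Mirlet7a-1 region, chr13:48545929-48546108: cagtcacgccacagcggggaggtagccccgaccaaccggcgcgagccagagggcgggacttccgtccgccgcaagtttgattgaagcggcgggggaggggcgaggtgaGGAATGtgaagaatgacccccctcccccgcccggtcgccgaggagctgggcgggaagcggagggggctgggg
A430078I02Rik region, chr6:86472212-86472391: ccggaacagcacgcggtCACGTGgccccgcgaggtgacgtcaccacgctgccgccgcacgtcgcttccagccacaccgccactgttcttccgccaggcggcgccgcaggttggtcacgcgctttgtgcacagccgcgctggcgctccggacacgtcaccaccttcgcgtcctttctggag
Aurkb region, chr11:69040132-69040311: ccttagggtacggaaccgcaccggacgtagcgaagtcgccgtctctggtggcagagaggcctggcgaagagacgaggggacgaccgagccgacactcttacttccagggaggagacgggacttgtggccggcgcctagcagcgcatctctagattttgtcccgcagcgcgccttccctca

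Near the genes of the pluripotency network, 2 regions upstream of Klf4, a transcription factor of naive ES cells, are shown. They were among the 3 with most ES lines, 13 and 10, where a fragment found in several gates counts in each. The other lay in an exon and is not shown.

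Klf4 upstream region, chr4:55651131-55651310: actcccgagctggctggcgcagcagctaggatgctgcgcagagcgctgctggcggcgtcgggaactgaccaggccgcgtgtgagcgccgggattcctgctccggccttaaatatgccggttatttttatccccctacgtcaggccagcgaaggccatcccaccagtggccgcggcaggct
Klf4 far upstream region, chr4:55721641-55721820: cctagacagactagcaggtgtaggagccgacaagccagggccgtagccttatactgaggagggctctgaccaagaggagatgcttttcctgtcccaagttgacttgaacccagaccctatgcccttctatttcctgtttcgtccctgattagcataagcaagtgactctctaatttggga

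The next 4 regions had the 2 lowest p-values in each direction of the test of positive against negative fragments. The Serpinh1 and Stx3 regions had the lowest for more positive fragments than their share. The 4930520P13Rik and Gsg1l regions had the lowest for fewer.

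Serpinh1 region, chr7:99360164-99360343: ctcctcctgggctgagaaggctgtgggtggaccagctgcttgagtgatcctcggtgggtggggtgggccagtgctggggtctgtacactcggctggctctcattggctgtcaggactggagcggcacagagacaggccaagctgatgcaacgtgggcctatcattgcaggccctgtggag
Stx3 region, chr19:11800591-11800770: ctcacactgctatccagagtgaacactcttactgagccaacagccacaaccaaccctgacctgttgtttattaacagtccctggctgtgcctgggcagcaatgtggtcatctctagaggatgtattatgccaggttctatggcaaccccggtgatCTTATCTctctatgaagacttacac
4930520P13Rik region, chr13:70368844-70369023: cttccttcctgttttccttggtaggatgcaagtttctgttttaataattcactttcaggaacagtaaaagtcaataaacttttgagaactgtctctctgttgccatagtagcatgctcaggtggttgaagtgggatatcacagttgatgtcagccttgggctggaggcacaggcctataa
Gsg1l region, chr7:126032146-126032325: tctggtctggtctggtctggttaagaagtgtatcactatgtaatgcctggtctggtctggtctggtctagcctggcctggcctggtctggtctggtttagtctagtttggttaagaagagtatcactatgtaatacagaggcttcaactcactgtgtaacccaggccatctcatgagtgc

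The sequence of the Zfp958 region held 31 positive and 10 negative fragments in replicate 1, and 5 positive and 1 negative in replicate 2. It lies on chromosome 8, from 4677379 to 4678693, in an intergenic place 64697 bp downstream of the start of Zfp958. The Mirlet7a-1 region lies 8086 bp upstream of a gene of the let-7 family, whose microRNAs restrain growth and pluripotency factors. It had 7, 10 and 3 fragments in the Low, Medium and High gates of replicate 1 against 3 in Negative, and 4, 5 and 4 against 4 in replicate 2. The A430078I02Rik region lies in an exon, 8397 bp downstream of the nearest start. It had 18 positive and 7 negative fragments in replicate 1 and 6 and 2 in replicate 2. The region near Aurkb, which encodes a mitotic kinase, had 20 positive and 9 negative fragments in replicate 1 and 3 positive in replicate 2. All 4 regions were therefore in the Negative gate of replicate 1 as well as in every positive gate, and 3 of the 4 were also in the Negative gate of replicate 2. Among all regions with a positive fragment, the share that was also negative was 42.9% in replicate 1 and 9.89% in replicate 2.

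**Figure D1:**
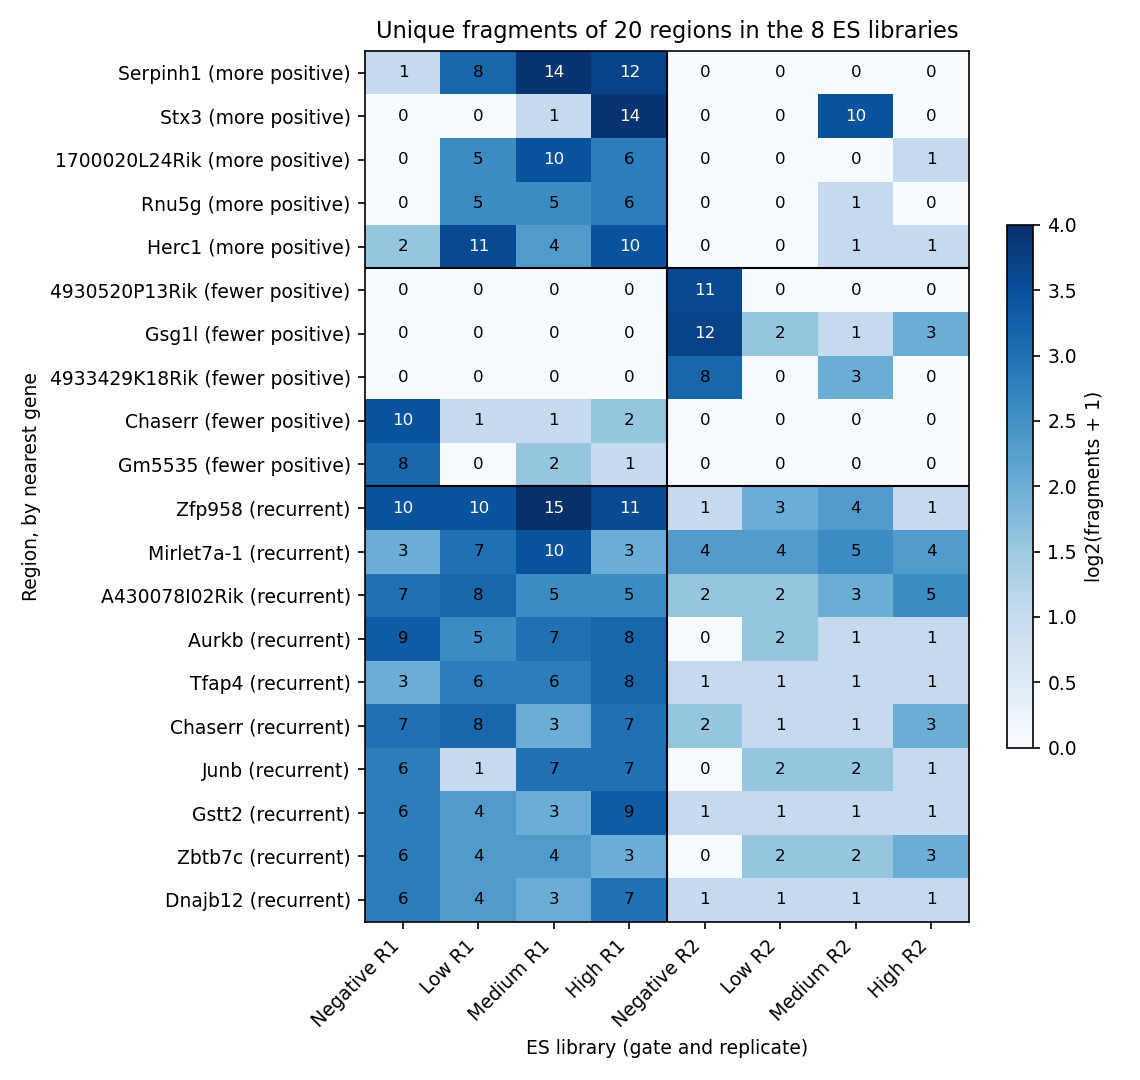
Unique fragments of 20 regions (rows, named by the nearest transcription start) in the 8 ES libraries (columns), as numbers and as shades of log2(fragments + 1). The top 5 rows are the regions with the lowest p for more positive fragments, the middle 5 those for fewer, and the lower 10 those recovered in all 6 positive libraries. Recurrent regions were also in the Negative gate, while the Stx3 and 4930520P13Rik rows rest on 3 and 1 libraries.

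The first question was whether positive fragments lie elsewhere relative to genes than negative ones. Distances were taken from the fragment centre to the nearest curated RefSeq transcription start site (TSS). The study's methods class fragments within 1500 bp of a TSS as promoter fragments, apart from distal ones. Among the genes with most positive fragments the smallest distance here was 1527 bp, near Kdm6b. The comparisons by place therefore concern mainly distal fragments, and not all inserts of the screen. The median distance was 14638 bp in the Negative gate of replicate 1 and 14859, 14910 and 15253 bp in Low, Medium and High. In replicate 2 it was 23749 bp in Negative and 22855, 24288 and 25542 bp in Low, Medium and High. The High gate had the largest median in both replicates, whereas the lowest was Negative in replicate 1 and Low in replicate 2. The positive union exceeded the Negative gate by 344 bp in replicate 1 and 812 bp in replicate 2, a mean of 578 bp ± 330 (SD, n = 2), with p = 0.562 in a two-sided exact permutation test over the 16 choices of a Negative gate. This test cannot give a p below 0.0625. From Negative to High the slope of the median was 189 bp a gate in replicate 1 and 681 bp in replicate 2, with p = 0.0625 over all orders of the gates within replicates in an exact permutation test and an adjusted p of 0.621 over 10 features.

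The shares of fragments by place lay further apart between replicates than between most gates. In replicate 1 39.5% of negative fragments lay within 10 kb of a TSS, and in Low, Medium and High the shares were 38.9%, 38.7% and 38.0%. In replicate 2 the shares were 27.2% in Negative and 30.5%, 27.9% and 26.9% in the positive gates. The order therefore ran down from Negative to High in replicate 1, and Low stood highest in replicate 2. Fragments more than 100 kb from any TSS made up 6.30% of the Negative gate and 6.36% of the positive union in replicate 1, and 16.4% and 17.4% in replicate 2. The difference was 0.557 percentage points ± 0.699 (SD, n = 2).

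Gene bodies, that is exons and introns together, held 48.6% of negative and 48.4% of positive fragments in replicate 1. In replicate 2 they held 49.3% of the Negative gate and 51.4%, 51.2% and 52.4% of Low, Medium and High. All 3 positive gates of replicate 2 thus lay above its Negative gate, and in replicate 1 Medium alone did, at 49.5%. The mean difference was 1.09 percentage points ± 1.84 (SD, n = 2), with an exact permutation p of 0.25. Exons held 9.44% of the Negative gate and 8.88%, 9.17% and 8.56% of Low, Medium and High in replicate 1, so that all 3 positive gates were lower there. In replicate 2 the exon share was 6.15% in Negative and 6.92%, 5.91% and 6.13% in the positive gates. Fragments upstream of their nearest TSS were 45.2% of negative and 45.3% of positive fragments in replicate 1, and 41.2% and 40.9% in replicate 2. None of 10 fragment features differed between the positive union and the Negative gate with an adjusted p under 0.05 in the exact permutation test, and the lowest adjusted p was 0.812. The smallest p of this test is 0.0625, so it could not call a feature and the absence of calls decides nothing.

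**Figure D2:**
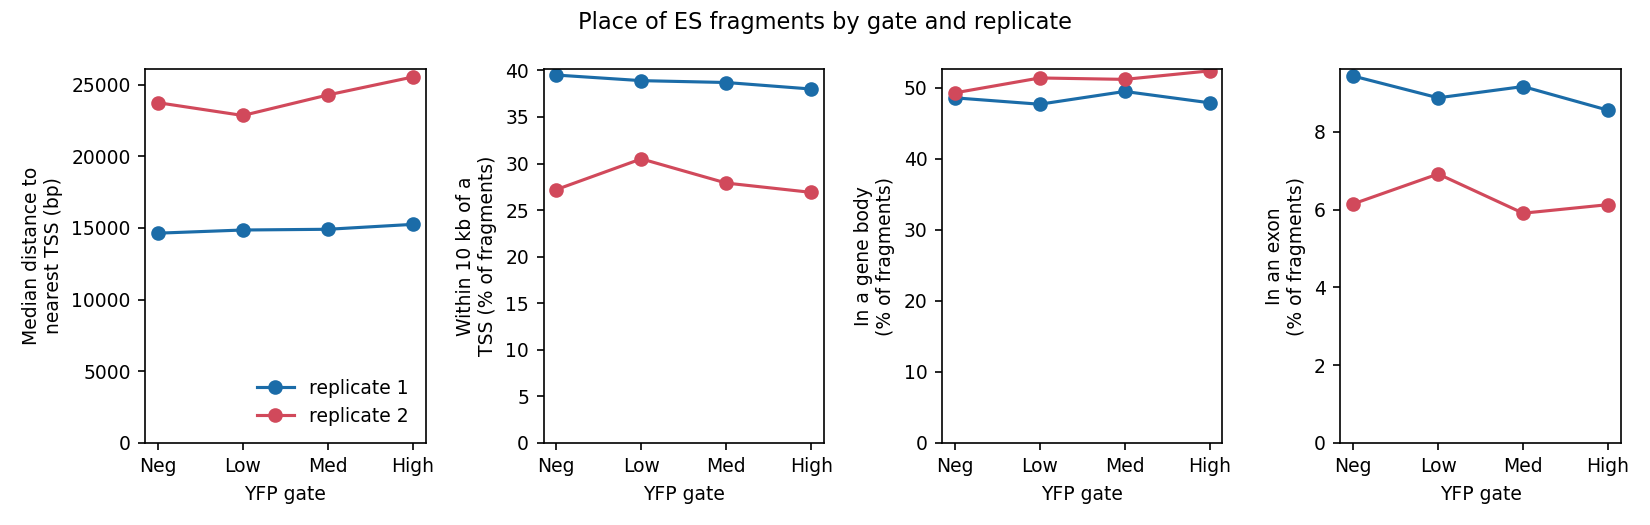
Median distance to the nearest TSS in bp, and shares of fragments within 10 kb of a TSS, in gene bodies and in exons, against the YFP gate, 1 point per ES library and 1 line per replicate. The lines of the 2 replicates lie further apart than the gates of a replicate in 3 of the panels, for example 38.0% to 39.5% against 26.9% to 30.5% for fragments within 10 kb.

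The replicates differed in composition in every gate. Mean GC content was 56.9% to 57.1% in the 4 gates of replicate 1 and 49.4% to 51.0% in those of replicate 2. CpG dinucleotides numbered 3.42 to 3.53 per 100 bp in replicate 1 and 1.58 to 1.88 in replicate 2. Repeat-masked sequence made up 8.28% to 8.62% of the fragments in replicate 1 and 17.4% to 20.3% in replicate 2. Matches to the motif of CTCF, the insulator-binding factor, were at 0.338 per kb in the Negative gate of replicate 1 and 0.0755 per kb in that of replicate 2. Within a replicate, the positive minus negative difference in GC content was -0.193 points in replicate 1 and -0.736 points in replicate 2. Chromosome 11 held 13.6% to 14.3% of the fragments of each gate in replicate 1 and 9.30% to 10.7% in replicate 2. A sort, its cells and its PCR share the replicate number, and their parts in these differences cannot be told apart.

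Some libraries stood apart. Fragments of ES Medium in replicate 2 had a median length of 309 bp, against 203, 219 and 185 bp in Negative, Low and High of that replicate and 182 to 186 bp in replicate 1. Of its 4318 fragments 2828 (65.5%) were identical, to the base at both ends, with fragments of the Low gate of hemogenic endothelium 1 (HE1) in the same replicate. The other ES libraries of replicate 2 shared 19.1% to 30.1% of their fragments with the library of another stage they were most like. That library was again HE1 Low for Low (30.1%) and High (19.1%), though not for Negative. HE1 Low of replicate 2 held 31915 fragments, the most of that replicate. The ES libraries of replicate 1 shared 3.40% to 5.39% with the library they were most like. The part of ES Medium of replicate 2 is given beside the regions and genes that rest most on it.

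Next, the gates were compared by the fragments they had in common. In replicate 1, 698 of 10352 negative fragments (6.74%, Wilson 95% interval 6.28 to 7.24) were identical with a positive fragment. In replicate 2 it was 806 of 2814 (28.6%, interval 27.0 to 30.3). Between 2 gates of replicate 1 the shared part of the smaller library ranged from 2.16% for Low with Medium to 3.20% for Medium with High. In replicate 2 it ranged from 15.0% for Negative with Medium to 26.6% for Low with Medium. Pairs with the Negative gate lay within the range of pairs of positive gates in replicate 1, at 2.61%, 2.94% and 2.92% for Low, Medium and High. In replicate 2 they were at 21.3%, 15.0% and 15.3%, against 26.6%, 23.3% and 21.8% for the 3 pairs of positive gates, so that the pair of Negative and Low fell just below all pairs of positive gates and the other 2 fell further below. These intervals cover counting error only, since PCR without molecular identifiers can give several reads and near-identical ends from 1 molecule.

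Identical fragments were rare between replicates. Of the 16 pairs of an ES gate of replicate 1 with one of replicate 2, 14 shared 0.0355% to 0.397% of the smaller library. High of replicate 1 and High of replicate 2 shared 47 fragments (1.05%). High of replicate 1 and Medium of replicate 2 shared 142 (3.29%, Wilson interval 2.80 to 3.86), in 133 regions. Of these 142 fragments 133 were also in the HE1 Low library of replicate 2, which is the one that ES Medium of replicate 2 resembled.

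Recurrence of regions was measured next. The ES fragments fell into 20113 of the 75060 regions of the series, and 11004 of these regions (54.7%) held a single ES line. Positive fragments alone were found in 12189 regions (60.6%), negative alone in 2762 (13.7%) and both in 5162 (25.7%). In replicate 1, 75.8% of the 5804 regions with a negative fragment also had a positive one, and in replicate 2 it was 34.0% of 2302. Positive fragments in both replicates were found in 837 regions, 4.82% of the regions with any. Of these 837 regions, 287 (34.3%) had no negative fragment in either replicate, 452 (54.0%) had one in 1 replicate and 98 (11.7%) had them in both. Without ES Medium of replicate 2, 583 regions were positive in both replicates, of which 180 (30.9%) had no negative fragment. Negative fragments in both replicates were found in 182 regions, and in 8 of them no positive fragment was found. Over the 6 positive libraries, 11400 regions (65.7%) were in 1 library, 256 in 4, 86 in 5 and 26 in all 6.

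Whether a region comes back in the same class was tested with the Jaccard index, the share of regions common to 2 lists among the regions in either, at an equal depth of 2814 fragments per class. It was 2.26% for positive with positive across replicates and 2.08% for negative with negative. Across classes it was 2.00% for positive of replicate 1 with negative of replicate 2 and 2.14% for negative of replicate 1 with positive of replicate 2. Same-class pairs exceeded other-class pairs by 0.0947 percentage points, with p = 0.375 in the two-sided exact permutation test over 16 arrangements. By gate, at 1763 fragments each, the mean was 1.66% for the same gate and 1.67% for other gates, a difference of -0.00801 points with p = 0.417 in a one-sided exact permutation test over 24 assignments. The index followed the library rather than the gate, since all 4 gates of replicate 1 were most like Low of replicate 2, at 2.06% to 2.25%. Within replicate 1 every pair of gates was at 11.4% to 11.9%, the 3 pairs with Negative included at 11.6% to 11.9%. Within replicate 2 the index ranged from 4.05% for Negative with High to 8.51% for Negative with Low.

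**Figure D3:**
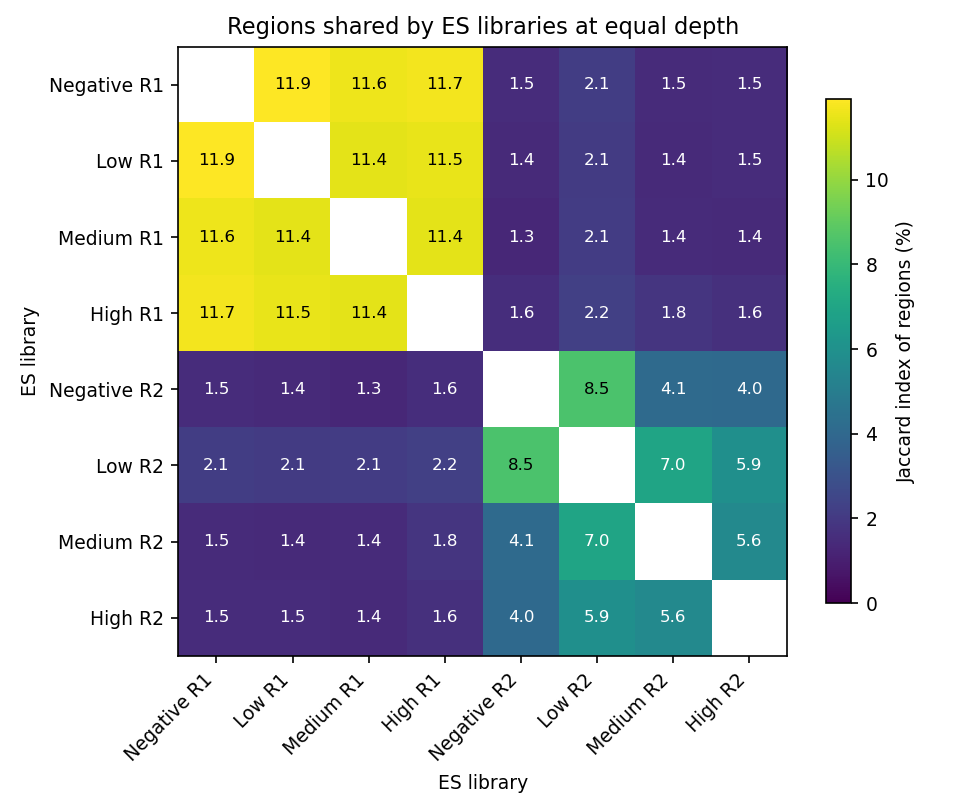
Jaccard index of regions in percent for every pair of the 8 ES libraries (rows and columns), at an equal depth of 1763 fragments. Pairs within replicate 1 lie at 11.4% to 11.9% and pairs between replicates at 1.34% to 2.25%, with no higher values for the same gate.

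The test per region asked which open sites gave more or fewer positive fragments than the rest of the ES fragments. It was a Cochran-Mantel-Haenszel (CMH) test over the 2 replicates, with Benjamini-Hochberg adjustment, on 731 regions with at least 10 ES fragments. The share of positive fragments among all was 72.8% and 76.2%, so the number of positive fragments over the expected number (the ratio) could not exceed 1.37 in replicate 1 or 1.31 in replicate 2. The median ratio over the 731 regions was 0.990, with quartiles of 0.877 and 1.10. No region had more positive fragments with an adjusted p under 0.05, a background of 0% of those tested, and 2 had fewer, a background of 0.274%. At an unadjusted p under 0.05 there were 7 with more and 23 with fewer. The 2 directions were not equally open to a call. The 1700020L24Rik region, with 22 positive and 0 negative fragments, had a CMH p of 0.00889. The 4930520P13Rik region, with 0 positive and 11 negative, had a CMH p of 2.32e-08. The numbers of regions with more and with fewer are therefore not comparable. The replicates gave unequal parts to this test, since 634 of the 731 regions drew at least 9 fragments from replicate 1 for each one from replicate 2 and 271 had any fragment in replicate 2.

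The lowest p-value for more positive fragments belonged to a region 7016 bp upstream of Serpinh1, which encodes a chaperone of collagen (chr7:99359793-99360715, intergenic). Low, Medium and High of replicate 1 held 8, 14 and 12 fragments and Negative held 1, and replicate 2 held none in any gate. All 3 positive gates were thus above the Negative gate in the replicate that recovered it, with 34 positive fragments against 25.5 expected (ratio 1.33). Its CMH test gave an adjusted p of 0.282. At the other 4 stages this region had 113 positive and 29 negative fragments, 79.6% positive against 77.2% of all their fragments.

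The Stx3 region came second (chr19:11800494-11801067). It lies in an intron 18616 bp downstream of a start of Stx3, a syntaxin of the membrane fusion machinery. It had 14 fragments in High and 1 in Medium of replicate 1, 10 in Medium of replicate 2 and none in the other 5 libraries, with a CMH adjusted p of 0.588. The positive fragments were in both replicates, but 7 of the 10 of replicate 2 were identical with fragments of replicate 1, all 10 were in the HE1 Low library of replicate 2, and 23 of the 25 lines had 1 end in common. With fragments that differ by at most 5 bp at both ends counted once, 16 positive fragments remained. At the other stages the region had 40 positive and 61 negative fragments.

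The next regions with more positive fragments lay near 1700020L24Rik, Rnu5g and Herc1. The 1700020L24Rik region had 22 positive fragments and 0 negative, with 5, 10 and 6 in Low, Medium and High of replicate 1. The region 5435 bp downstream of Rnu5g, a gene of the U5 spliceosomal RNA, had 5, 5 and 6 in the same gates, 1 in Medium of replicate 2 and 0 negative. The region upstream of Herc1 had 26 positive and 2 negative fragments and was the only one of these 5 with a positive fragment in 5 libraries. None of them passed the CMH test, with an adjusted p of 0.722 near 1700020L24Rik and 1.00 near the other 2.

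The 2 regions that passed the test had fewer positive fragments, and all of their fragments were from replicate 2. The 4930520P13Rik region (chr13:70368801-70369023, intergenic, 136090 bp downstream of the nearest TSS) had 11 fragments in Negative of replicate 2 and none in the other 7 ES libraries, with a CMH adjusted p of 1.70e-05. All 11 had 1 end in common, and 6 remained when near-identical ends were counted once, too few to be tested. No library of another stage had a fragment there. The Gsg1l region (chr7:126032105-126032325, intron, 50196 bp downstream of the TSS) had 12 fragments in Negative and 2, 1 and 3 in Low, Medium and High of replicate 2, with a CMH adjusted p of 0.00224. All 18 lines had 1 end in common, and with near-identical ends counted once the region had 3 positive and 8 negative fragments and an adjusted p of 0.162. At the other stages it had 41 positive and 37 negative fragments. The part of repeated amplification of few molecules in these 2 calls was not tested.

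The other regions with fewer positive fragments did not pass. A region 36846 bp upstream of Chaserr, a non-coding RNA gene beside the chromatin remodeller gene Chd2, had 10 fragments in Negative and 1, 1 and 2 in Low, Medium and High of replicate 1. A second region, 60077 bp upstream of the same gene, was among the recurrent ones, with 7 in Negative and 8, 3 and 7 in the positive gates of replicate 1. Both thus lay near Chaserr, and they differed in the spread of their fragments over the gates. A region near Gm5535 had 8 negative and 3 positive fragments, and one near 4933429K18Rik, repeat-masked over its whole length, had 8 negative and 3 positive fragments with 1 end in common for all 11 lines.

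**Figure D4:**
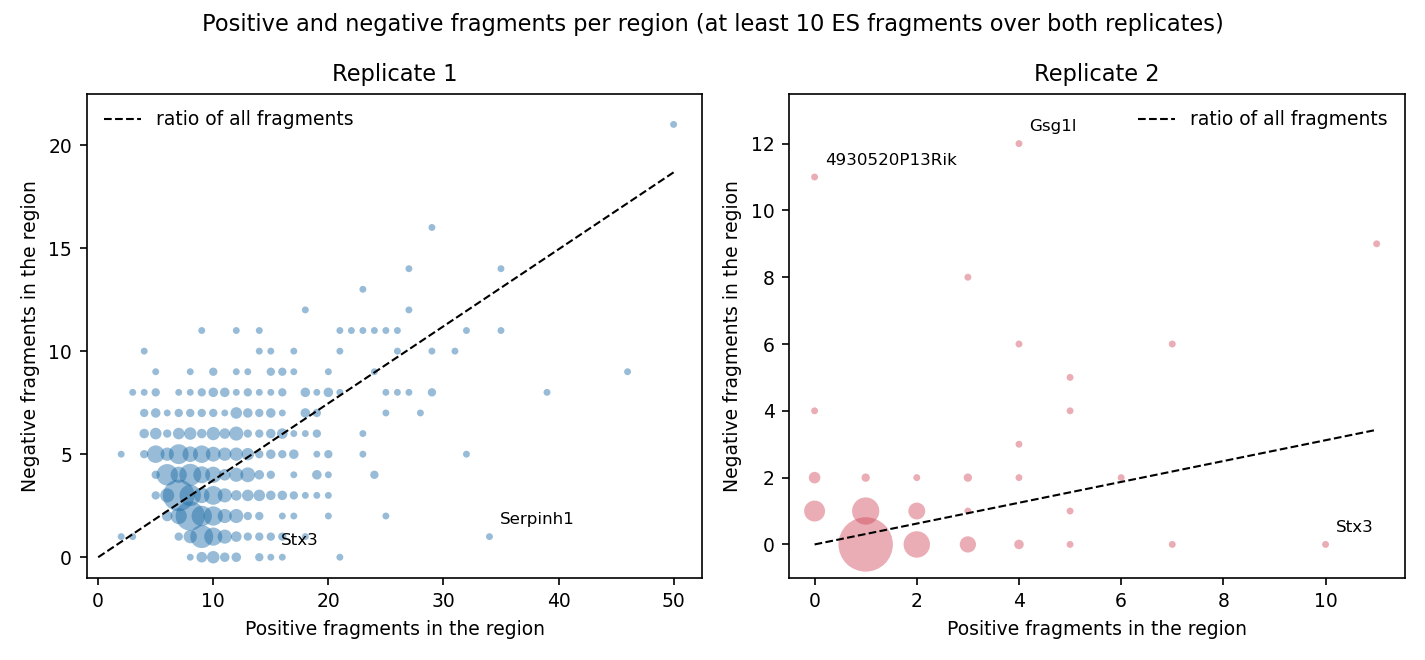
Positive (x axis) and negative (y axis) unique fragments in each tested region, replicate 1 on the left and replicate 2 on the right, where larger points stand for more regions and the dashed line for the ratio of all fragments. The regions near 4930520P13Rik and Gsg1l lie above the line in replicate 2, with 11 and 12 negative fragments, and the Serpinh1 region lies below it in replicate 1, with 34 positive and 1 negative.

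Of the 10 regions recovered in all 6 positive libraries with most fragments, 7 were also in both Negative libraries and all 10 in the Negative library of replicate 1. Of all regions with a positive fragment, 42.9% in replicate 1 and 9.89% in replicate 2 also had a negative one in that replicate. The 10 regions were chosen for many fragments, and a region with many fragments is more likely to hold a negative one. The Tfap4 region had 20 positive and 3 negative fragments in replicate 1, and the region near Junb, which encodes an AP-1 subunit, had 15 and 6. The ratio in the 10 regions ran from 0.912 near Dnajb12 to 1.15 near Tfap4, around the median of 0.990 of all regions tested. Regions positive in at least 4 libraries had a median width of 853 bp, against 341 bp for all regions with an ES fragment, and a wide region can hold more fragments of every kind.

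Fragments were then assigned to the gene with the nearest TSS. They fell to 10328 genes, of which 369 had at least 20 ES fragments and were tested. The CMH test called 0 genes with more and 0 with fewer positive fragments at an adjusted p under 0.05, a background of 0% in each direction. At an unadjusted p under 0.05, 6 genes had more and 12 had fewer, and limma called 0 with 10 at an unadjusted p under 0.05. The median ratio over the 369 genes was 0.991.

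The genes with most positive fragments included several immediate early genes and regulators. Septin9, a cytoskeletal GTPase gene, had 55 positive and 9 negative fragments in 14 regions. Ier2, an immediate early gene, had 54 and 14. Fos, which encodes an AP-1 subunit, had 47 positive and 25 negative, with 23 in Negative and 20, 7 and 16 in Low, Medium and High of replicate 1. Socs3, the feedback inhibitor of LIF signalling, had 49 and 18. Among genes of chromatin regulators, Phf19, of a Polycomb complex, had 50 and 21, all in 1 region and in replicate 1, and Kdm6b, which encodes a histone demethylase, had 44 and 17. Arhgap23, Trim8 and A330074K22Rik had 45 to 51 positive and 14 to 25 negative fragments. The ratio of these 9 genes ran from 0.879 for A330074K22Rik to 1.17 for Septin9, on both sides of the median of all genes tested. The quartiles of all genes tested were 0.903 and 1.07. Septin9 and Ier2 (1.09) lay above the upper quartile, and Fos (0.893) and A330074K22Rik lay below the lower one.

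Serpinh1 had the lowest p among genes with more positive fragments. Its gates of replicate 1 held 8, 15 and 14 fragments in Low, Medium and High and 1 in Negative, and replicate 2 added 1 in Medium and 1 in High. That made 39 positive against 29.2 expected, with a CMH p of 9.12e-04 and an adjusted p of 0.168. This gene was past the threshold when replicates were pooled without the replicate block (adjusted p = 0.0385, Fisher's exact test) and when at least 40 fragments were asked for (adjusted p = 0.0447). Stx3, Cistr, Trp53i11 and Mir1904 followed, with 25, 22, 34 and 27 positive fragments and 0, 0, 3 and 2 negative ones. For Stx3 and Cistr, 10 of 10 and 8 of 9 positive fragments of replicate 2 were in its Medium gate, the library that shared most with HE1 Low, and for Trp53i11 4 of 9 were.

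At the other end stood Gm13090, with 15 fragments in Negative and 6, 3 and 6 in Low, Medium and High of replicate 1, and 5 in Negative and 3, 1 and 2 in replicate 2. Its Negative gate held more fragments than any positive gate in both replicates. It had 19 positive fragments against 28.7 expected, with a CMH p of 8.21e-04 and an adjusted p of 0.168. Kcnh2, which encodes a potassium channel, had 9 positive and 12 negative fragments. Cbx7, which encodes a Polycomb protein, had 10 and 11, Prrc2b 17 and 15, and Chaserr 30 and 22. The Negative gate of replicate 1 held more fragments than any single positive gate for each of these 4 genes as well.

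Genes of the pluripotency network were then read as a list. Of 32 genes, 23 had an ES fragment, and together they had 78 positive and 33 negative fragments in replicate 1 (70.3% positive against 72.8% of all) and 23 and 9 in replicate 2 (71.9% against 76.2%). They took 0.281% of positive and 0.319% of negative fragments in replicate 1, and 0.255% and 0.320% in replicate 2. Only Klf4 had enough fragments to be tested. Its Negative, Low, Medium and High gates held 10, 12, 2 and 5 fragments in replicate 1 and 2, 3, 3 and 3 in replicate 2, so that its Low gates were the fullest or shared the first place. Its ratio was 0.895 with a CMH adjusted p of 1.00. The Klf4 upstream region shown above had 9 positive and 4 negative fragments, all of replicate 1, and the far upstream region had 3 positive and 2 negative, all of replicate 2. Esrrb, an orphan nuclear receptor gene of the naive network, had 12 positive and 3 negative fragments in 8 regions. Gbx2, which encodes a homeobox factor, had 7 and 4. Sox2 had 6 and 1, Nanog had 5 and 3, and Pou5f1 had 1 fragment in all, too few to compare.

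The other lists were read by their shares, and none of their tested genes passed the CMH test in either direction. Fragments near 18 genes of the formative and primed states were 76.2% positive in replicate 1 and 44.4% in replicate 2, where they numbered 18. Dnmt3a, a DNA methyltransferase gene, gave 4 of the 10 negative fragments of that list in replicate 2. LIF and BMP signalling genes, with Socs3 as the largest part, were 70.7% and 75.0% positive. In that list Id3, a BMP target, had 9 positive and 7 negative fragments and Id2 had 12 and 3. Chromatin regulators were 73.3% and 90.9% positive, the latter of 11 fragments, and Jarid2, a Polycomb cofactor gene, gave 25 positive and 8 negative fragments (ratio 1.03). Extraembryonic genes were 66.7% and 84.6% positive, with Sox17, an endoderm factor gene, at 14 and 11 (ratio 0.768). Sox17 alone gave 11 of the 21 negative fragments of that list in replicate 1. Tfap2c, the gene with the next most fragments there, had 14 positive and 4 negative.

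Genes of other lineages gave fragments as well. Mesoderm and hemangioblast genes were 68.6% positive in replicate 1 and 73.7% in replicate 2, with Hand1 at 13 positive and 6 negative fragments. Blood and endothelial genes were 69.6% and 68.8% positive. The 3 genes of that list with most fragments were Meis1, a homeobox gene of blood progenitors, with 21 and 5 (ratio 1.10), Pecam1 with 11 and 7, and Lyl1 with 13 and 5. Itga2b, which encodes the CD41 antigen and was chosen after its values were seen, followed with 7 positive and 10 negative. Neuronal genes had few fragments in replicate 1, 10 positive and 8 negative (55.6% positive). Snap25 alone gave 6 of those 10 and 5 of those 8. In replicate 2 the neuronal genes had 34 and 6 (85.0%), where 13 of the 34 were in Medium alone. Without ES Medium of replicate 2, the neuronal list was 77.8% positive in that replicate, against 67.5% of all its fragments. Housekeeping genes were 66.2% positive in replicate 1, with Actb, which encodes a cytoskeletal actin, at 16 positive and 5 negative fragments. In replicate 1 the share of the pluripotency list, 70.3%, lay beside 69.6% for blood and endothelial and 66.2% for housekeeping genes, and differences between lists were not tested.

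Motif density was compared last, as matches per kb on both strands. Of 13 motifs, none differed between positive and negative fragments or along the gates with an adjusted p under 0.05 in the exact permutation tests, and the lowest adjusted p was 0.325 and 0.576. The first of these 2 tests cannot give a p below 0.0625, so it could not call a motif. The OCT motif (ATGCAAAT), bound by OCT4, was at 0.0680 per kb in Negative and 0.0559, 0.0771 and 0.0732 in Low, Medium and High of replicate 1. In replicate 2 it was at 0.0302 in Negative and 0.0600, 0.0577 and 0.0569 in the positive gates, all of them higher. The exact permutation p was 0.125, with a mean difference of 0.0140 per kb ± 0.0204 (SD, n = 2). The ESRRB motif (TCAAGGTCA) was at 0.0143 per kb in Negative and 0.0188 in positive fragments of replicate 1, and at 0.0218 and 0.0260 in replicate 2 (exact permutation p = 0.125). The KLF motif (GGGNGTGGC) was at 0.181 in Negative and 0.167, 0.178 and 0.183 in the positive gates of replicate 1, and at 0.0671 and 0.0887, 0.0854 and 0.114 in replicate 2. Its slope over the gates was 0.00759 per kb a gate (exact permutation p = 0.0694). The STAT motif (TTCCNGGAA) was at 0.0409 and 0.0442 in negative and positive fragments of replicate 1 and at 0.0453 and 0.0339 in replicate 2, so the direction differed between replicates.

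The SOX motif (ACAATGG) reached the smallest p the design allows. It was at 0.160 per kb in Negative and 0.145, 0.154 and 0.143 in Low, Medium and High of replicate 1, and at 0.300 and 0.149, 0.164 and 0.159 in replicate 2. Every positive gate was lower than its Negative gate, with a mean difference of -0.0763 per kb, an exact permutation p of 0.0625 and an adjusted p of 0.325. The Negative gate of replicate 2 was nearly all of this difference. It held 179 matches, and 76 of them were in 70 fragments (2.49% of 2814) that shared a stretch of 15 bases. These 70 fragments lay in 69 regions on 20 chromosomes, 53 of them intergenic and 17 in introns, and each was at least 71.9% repeat-masked. In 68 of the 70 the stretch lay within 12 bases of a fragment end. The 40 bases before that end, as the most common base at each place over the 41 fragments with the same last 24 bases (up to 2 mismatches), are shown with the SOX match in capitals.

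Shared end: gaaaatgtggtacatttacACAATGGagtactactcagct

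The stretch was in 7 fragments of ES Medium of replicate 2, in 52 of 31915 fragments of HE1 Low of replicate 2 and in none of the other 6 ES libraries. Of the 70 fragments 2 were also positive. Without all fragments that hold the stretch, the Negative gate of replicate 2 was at 0.181 per kb and the mean difference at -0.0185 per kb. Every positive gate was still below its Negative gate, and the exact permutation p was again 0.0625. Among fragments under 50% repeat-masked it was at 0.164 against 0.150, 0.167 and 0.164 in Low, Medium and High, and the mean difference was -0.00796 per kb (exact permutation p = 0.312). Among the 409 fragments of that gate that were masked over at least 50%, the density was 1.01 per kb.

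**Figure D5:**
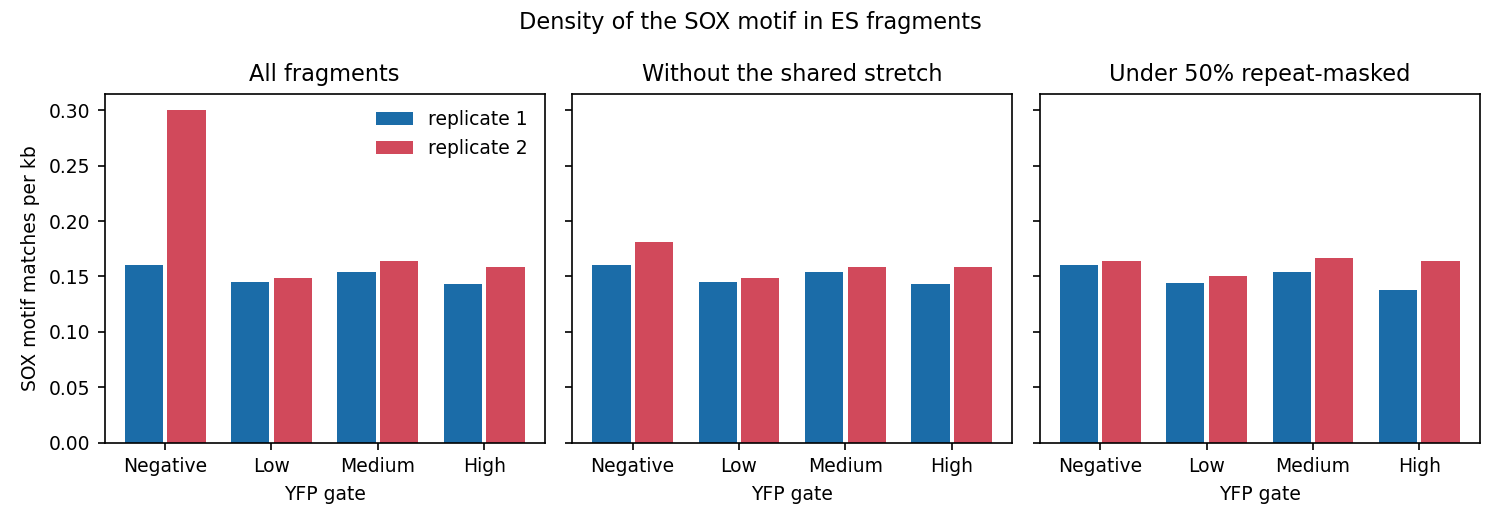
SOX motif matches per kb (bars) against the YFP gate for the 2 replicates, over all ES fragments, without the fragments that hold the shared stretch, and over fragments under 50% repeat-masked. The bar of the Negative gate of replicate 2 falls from 0.300 to 0.181 and 0.164, and the other bars stay between 0.138 and 0.167.

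Against the other 4 stages, the positive minus negative difference at the ES stage was compared by an exact permutation test over 25 arrangements, in which the smallest p is 0.04. For the SOX motif the ES difference minus that of the other stages was -0.0849 per kb (p = 0.0400, adjusted p = 0.520, exact permutation test). It was -0.156 per kb without replicate 1 and -0.0139 per kb without replicate 2, with exact permutation p of 0.200 and 0.400. At the other stages the difference ran from -0.00960 to 0.0595 per kb over the 8 pairs of stage and replicate. For the share in gene bodies the ES difference was 1.74 points higher (exact permutation p = 0.320), and for the median TSS distance 461 bp higher (exact permutation p = 0.560). No feature was past an adjusted p of 0.05.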

How the data were processed

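The authors deposited 1 BED list per library with the chromosome, start and end of each unique fragment in bp, a value on no expression scale, and no read count or score. Per the labels, inserts had been amplified by PCR and sequenced as read pairs, and the authors used Trim Galore, bowtie2 (mm10), Samtools, bedtools and HOMER, whose versions for these lists are not given in the sources used here. By the study's methods, proper pairs with high mapping quality were kept and repeated fragments reduced to 1. The methods also describe the removal of fragments found in untransfected cells and an open-chromatin filter. That filter included a peak of open chromatin at the matching stage in HM-1 cells. Last, the methods set fragments within 1500 bp of a TSS apart from distal ones as promoter fragments. Which of these filters the lists had passed is not stated.

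Groups came from the titles. Positive was the union of Low, Medium and High of a replicate. Gates of a replicate came from the same sorted culture, and their regions overlapped more within than between replicates, so replicate was kept as a stratum. The lists stem from cultures whose independence the labels do not state. The permutation tests exchanged gates or stages within a replicate, and limma took each positive gate of a replicate as a separate sample. Their p-values therefore measure mainly the spread between libraries of a replicate, and little of that between the 2 replicates. Those of the CMH test and of Fisher's exact test count each fragment as a unit and measure no spread between libraries. Both regions called by CMH had fragments in replicate 2 alone, so no spread between replicates could enter. Genes, TSSs, exons and introns were those of curated RefSeq transcripts of GRCm38.p6. Regions were merged overlapping fragments of all 40 libraries. Regions with at least 10 and genes with at least 20 ES fragments were tested by CMH with Benjamini-Hochberg adjustment (scipy 1.17.1), and limma 3.58.1 was an alternative. Features were compared by exact permutation of gates. The region and gene tests were tested on simulated data. Named were the 10 genes with most positive fragments, the 5 genes with the lowest p each way, the pluripotency genes with at least 10 fragments and the leading genes of each other list. Named regions were the 5 with the lowest p each way and 10 recovered in all positive libraries. Sox2, Nanog and Pou5f1 were added after their values were seen, and some genes that these rules name are not reported here. Members, lists and tests were chosen with earlier results of these data known.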

Additional observations from a re-analysis of the deposited data

Results flagged for a closer look

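Some measures moved one way from negative to positive fragments in both ES replicates and the opposite way in both replicates of another stage. The difference between the stages was not tested pair by pair, and over all 4 other stages together no feature passed an adjusted p of 0.05 in the exact permutation test. With 23 measures set against 4 stages, such pairs also arise by chance. Whether there were more of them than chance gives was not tested.

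Against hematopoietic progenitors (HP), the ES difference in GC content was -0.824 points relative to the HP difference, with -0.193 and -0.736 at the ES stage and 0.551 and 0.167 at HP. The share of fragments over 100 kb from a TSS was 0.836 points apart, with 0.0624 and 1.05 at ES and -0.318 and -0.242 at HP. The share in exons was -0.432 points apart, with -0.606 and -0.0192 at ES and 0.0851 and 0.154 at HP. The TCF motif was 0.0359 per kb apart, with 0.00881 and 0.0229 at ES and -0.0191 and -0.0209 at HP.

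Against hemogenic endothelium 1 (HE1), the SOX motif was -0.108 per kb apart and the RUNX motif -0.0257 per kb. The SOX difference was -0.0126 and -0.140 at ES and 0.00466 and 0.0595 at HE1, and its second ES value came from the Negative gate that held the shared stretch. The RUNX difference was -0.0136 and -0.00478 at ES and 0.00468 and 0.0283 at HE1.

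Against hemogenic endothelium 2 (HE2), CpG dinucleotides were -0.0824 per 100 bp apart, with -0.0682 and -0.00883 at ES and 0.0460 and 0.0417 at HE2. The ESRRB motif was 0.0102 per kb apart from HE2 and 0.00609 per kb from hemangioblast-like cells (HB), with 0.00443 and 0.00424 at ES, -0.00479 and -0.00694 at HE2 and -0.00197 and -0.00154 at HB. The GATA motif was 0.0450 per kb apart from HB, with 4.67e-05 and 0.0273 at ES and -0.0307 and -0.0319 at HB.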

How the results depend on the processing

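The lists hold no read counts, most regions held a single ES line, and the ratio could not rise above 1.37 with the positive union. Replicate 1 gave most fragments to the tests by region and gene, and both called regions came from replicate 2.

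The count of 2 called regions became 0 with fragments within 5 bp counted once, with a doubled minimum of fragments, with Low alone as positive, and with limma. It became 1 without fragments found in both classes, with High alone as positive, and without ES Medium of replicate 2, an alternative chosen after seeing the data, and the region that remained was the one near 4930520P13Rik in each. Leaving out a replicate gave 0 to 4 called regions, with 8 regions tested when replicate 2 was left alone. Without the replicate block the count was 2. With Medium alone as positive the Serpinh1 region (CMH adjusted p = 0.0266) passed beside the 2 called regions. With a lowered minimum of fragments a region near Thada (CMH adjusted p = 0.0148) passed beside the same 2. The Thada region had 0 positive and 7 negative fragments, all in replicate 2. For genes, the count of 0 became 1 with the minimum of fragments lowered to 10 (4930520P13Rik, adjusted p = 2.80e-04, with 1 positive and 11 negative fragments), 1 with double the minimum and 1 without the replicate block (Serpinh1 in both), and 1 with either replicate left out. Those were Serpinh1 in replicate 1 (adjusted p = 0.0463) and Dlgap3, the single gene tested in replicate 2. Other alternatives gave 0 genes.

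The difference in recurrence between the same gate and other gates turned to 0.00162 points without equal depth. With Low alone as positive, the differences turned to -337 bp for the median TSS distance, 1.33 points for fragments within 10 kb, 0.105 points for exons and 0.0789 points for GC content. The difference in median length turned to -11.0 bp with High alone and -5 bp without ES Medium of replicate 2, and the KLF motif to -0.00325 per kb without the replicate block. With a replicate left out, the difference ranged from -0.214 to 2.39 points for gene bodies, from -0.977 to 0.645 points for fragments within 10 kb, from -2.00 to 18 bp for median length, from -4.85e-04 to 0.0284 per kb for the OCT motif and from -0.00618 to 0.0273 per kb for the KLF motif. No feature passed an adjusted p of 0.05 under any alternative with a test. For positive against negative fragments none could pass, since the smallest p is 0.0625 with both replicates and larger with 1. Recurrence by class could not be computed with 1 replicate or with replicates pooled.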

Other observations

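At the other stages the share of positive fragments in the 10 recurrent ES regions ran from 72.2% near Junb to 87.5% near Zbtb7c. The Zfp958 region had 182 positive and 66 negative fragments (73.4% positive), the Mirlet7a-1 region 140 and 42 (76.9%) and the Aurkb region 109 and 35 (75.7%), against 77.2% of all fragments of those stages. The Gstt2 region was at 84.9%. The Dnajb12 region was at 84.4%, with 38 positive fragments at HE1 and HE2 and 0 at HB and HP. Shares and numbers of ES fragments found again at other stages varied with the library, since 74.5% of the ES Medium fragments of replicate 2 and 18.6% of the ES Low fragments of replicate 1 were identical with a fragment of another stage in the same replicate.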
